A study of Arabidopsis thaliana with 32 samples.

Results

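Of 10816 spotted features on a flower-enriched cDNA array, 123 were picked by their ratios of dexamethasone-treated to mock-treated RNA. Their mean ratio over 10 and 12 h stood above that of the first hours of treatment, though most did not rise at every step. The 123 were chosen on log2 ratios by 5 conditions. The mean of the 12 arrays at 2, 4 and 6 h (the early mean) was under 0.5. The mean of the 8 arrays at 10 and 12 h was at least 0.5, which is a 1.41-fold ratio. The mean of the 12 arrays at 10, 12 and 22 h (the late mean) exceeded the early mean by 0.3 or more. At least 10 of the 12 late values were above 0, and at least 10 values were present in both the early and the late set. These 6 time points therefore describe the features and test nothing about them, whereas the arrays at 0 and 8 h took no part in the choice.

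All tissue was Arabidopsis thaliana callus, which the labels describe as coming from root explants, and all of it carried 35S:LFY-GR. Tissue received either a solution with dexamethasone or a control solution for 0, 2, 4, 6, 8, 10, 12 or 22 h, and each of 32 arrays compared both at 1 time point, with 4 arrays per time point. Treated RNA was in channel 2 on replicates 1 and 3 and in channel 1 on replicates 2 and 4. The labels name no tissue without the transgene among these samples, so effects of the steroid and of the fusion protein cannot be told apart, and no source used here says whether the 4 replicates came from separate cultures. The p-values thus speak only to array-to-array variation, part or all of which may be technical.

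LEAFY is a plant transcription factor that turns a young shoot meristem into a flower, and it is known for switching on other meristem-identity regulators and the genes that specify floral organs. Fused to the hormone-binding domain of the mammalian glucocorticoid receptor (GR), it stays outside the nucleus until a steroid such as dexamethasone is given, so that its targets can be followed from a defined start. The viral 35S promoter drives the fusion in most tissues. No feature could be tied to a gene: the features carry plate positions, and 0 of the 10816 matched the RefSeq gene table of assembly TAIR10.1. The callus and its cell types could therefore not be checked by marker genes, and only 2 features are named below.

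Ratios are given on the log2 scale, turned so that the treated RNA is on top if the deposited ratio is channel 2 over channel 1. That direction is likely by convention, but no source used here states it, so it is not settled. Arrays of 1 orientation correlated as low as -0.311 across features between time points. If the ratio ran the other way, all signs below would exchange, and the same 123 features would descend, with a median of -0.61 at 8 h. "Rose" and "higher" below hold under the likely direction. Each array had a value for 10646 to 10809 features. Values at the recording limits, a ratio of 100 either way, made up 0.982% of all values and 0.0508% of the members' values (2 of 3936), and they were treated as missing. Of the 32 arrays, 10 had over 100 values at the upper limit, and 9 of these 10 were replicates 1 or 2.

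Averaged over the arrays of a time point, the climb was gradual. The median ratio of the 123 features per array averaged 0.03 ± 0.06 (SD, n = 4 arrays) at 0 h, and after 2 h of treatment it averaged 0.11 ± 0.09. It reached 0.25 ± 0.13 after 4 h, then 0.48 ± 0.14 after 6 h, and 0.58 ± 0.14 by 8 h. The step from 6 to 8 h differed by orientation. With treated RNA in channel 2 the medians averaged 0.56 at 6 h and fell to 0.48 at 8 h. With treated RNA in channel 1 they rose from 0.40 to 0.68. The arrays at 10 and 12 h gave 0.71 ± 0.12 each, and those at 22 h gave 0.99 ± 0.13. The array medians of all features stayed between -0.05 and 0.05 over the 32 arrays. The array medians of neighbouring time points overlapped, except that those at 6 h (0.366 to 0.675) lay just above those at 4 h (0.0877 to 0.365) and those at 22 h (0.869 to 1.17) just above those at 12 h (0.593 to 0.865).

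**Figure D1:**
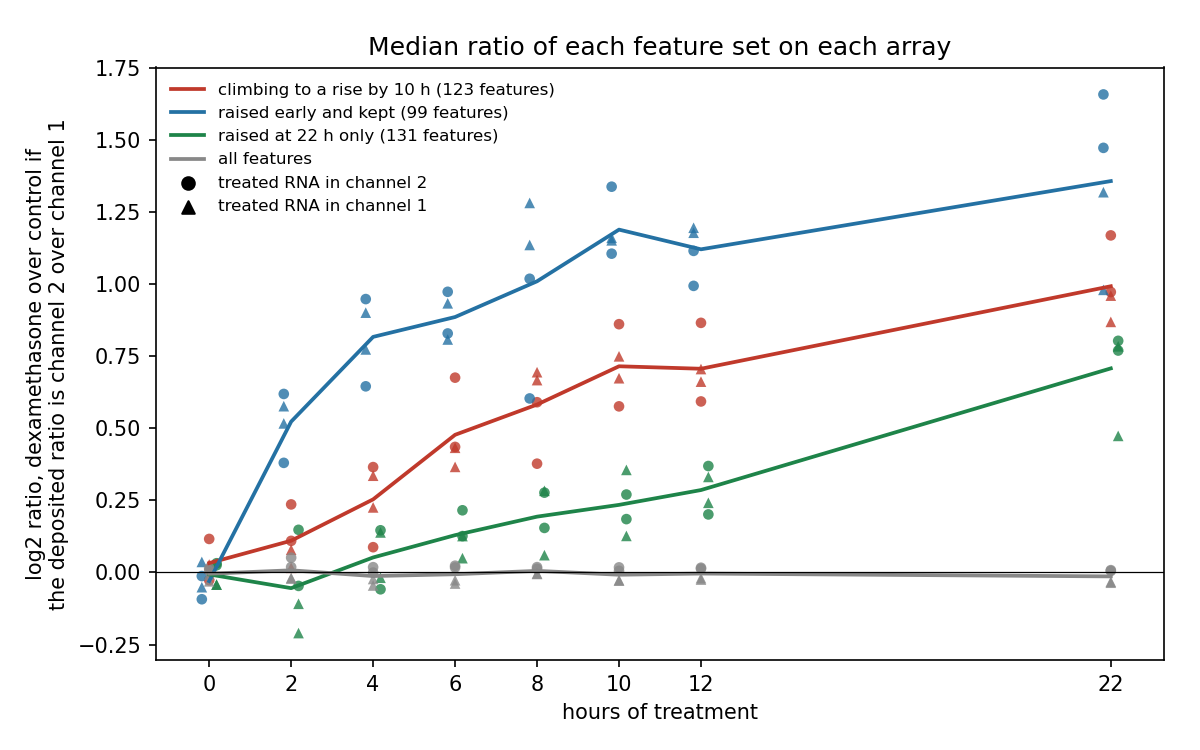
Median log2 ratio on each array (points) and its mean over the 4 arrays (lines) against hours of treatment, for the 123 climbing features, 2 sets raised at other times and all features. The climbing set passes from 0.03 at 0 h through 0.58 at 8 h to 0.99 at 22 h and lies between the other sets at each time point from 2 h on, while all features stay near 0.

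The 8 h arrays give the clearest reading of the set, because they fall between the early and the late time points and their values did not enter the choice. At 8 h the medians on replicates 1 to 4 were 0.59, 0.69, 0.38 and 0.67. All 123 features had a mean above 0 at 8 h, from 0.08 to 1.31 with a median of 0.61. In 89 of the 123 (72.4%) all 4 arrays were above 0, against 9.80% of the 10204 features with 4 values. The ratio was positive in both orientations of the array for 119 of the 123 (96.7%), against 25.8% of all features.

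A limma model across all features (1 coefficient per time point and 1 dye term) tested the 8 h ratio against 0. Each feature's variance and dye term were estimated over all arrays, most of which were used in the choice. The standard errors are therefore not independent of the choice. The 8 h ratio was called as follows. The model passed 70 of the 123 as positive and 0 as negative at a Benjamini-Hochberg adjusted p under 0.05, where the background over the 10567 features tested was 2.36% positive and 0.852% negative. The 70 features had 8 h means from 0.41 to 1.31, and the other 53 from 0.08 to 1.01. The 4 arrays of a feature had a median SD of 0.29 among the 70 and of 0.48 among the 53. At 22 h the 70 and the 53 had medians of 0.98 and 0.96. The number of members passing at 8 h was 37 without replicate 2, 37 without replicate 4, 37 when replicate 1 was averaged with 2 and replicate 3 with 4 (the case of dye-swapped RNA), and 41 without the 10 arrays with many limit values. With the 8 h arrays fitted alone, limma passed 0 members, with 101 at an unadjusted p under 0.05.

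At 0 h of treatment the same features were near 0. Their means there ran from -0.68 to 0.25 with a median of 0.04, and 43 of the 123 were below 0. No member passed the test at 0 h by limma (1 at an unadjusted p under 0.05), nor did any of the 10567 features (background 0%, 293 unadjusted). The lowest mean at 0 h came from 1 array, as that feature had 0.11, 0.04, -2.95 and 0.10 on replicates 1 to 4, and the next lowest mean was -0.38.

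The 8 h ratio exceeded the 0 h ratio in all 123 features, with a median difference of 0.54. The difference itself passed for 13 of the 123 by limma, all positive, against a background of 0.672% positive. Those 13 differed by 0.63 to 1.20, and all 13 were also among the 70. At an unadjusted p under 0.05 there were 75 members (61.0%), all positive, against 8.23% of all features tested, counted in both directions. In 44 of the 123 the lowest of the 4 values at 8 h lay above the highest of the 4 values at 0 h, against 2.88% of the 10125 features with 4 values at both times. The difference carries the error of both time points, with a median standard error of 0.23, against 0.16 for the 8 h ratio alone. The count of 13 was 4, 1 and 1 without replicates 1, 2 and 4, 17 without replicate 3, 3 with the arrays averaged, 8 with the arrays scaled to 1 spread and 2 without the 10 arrays.

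**Figure D2:**
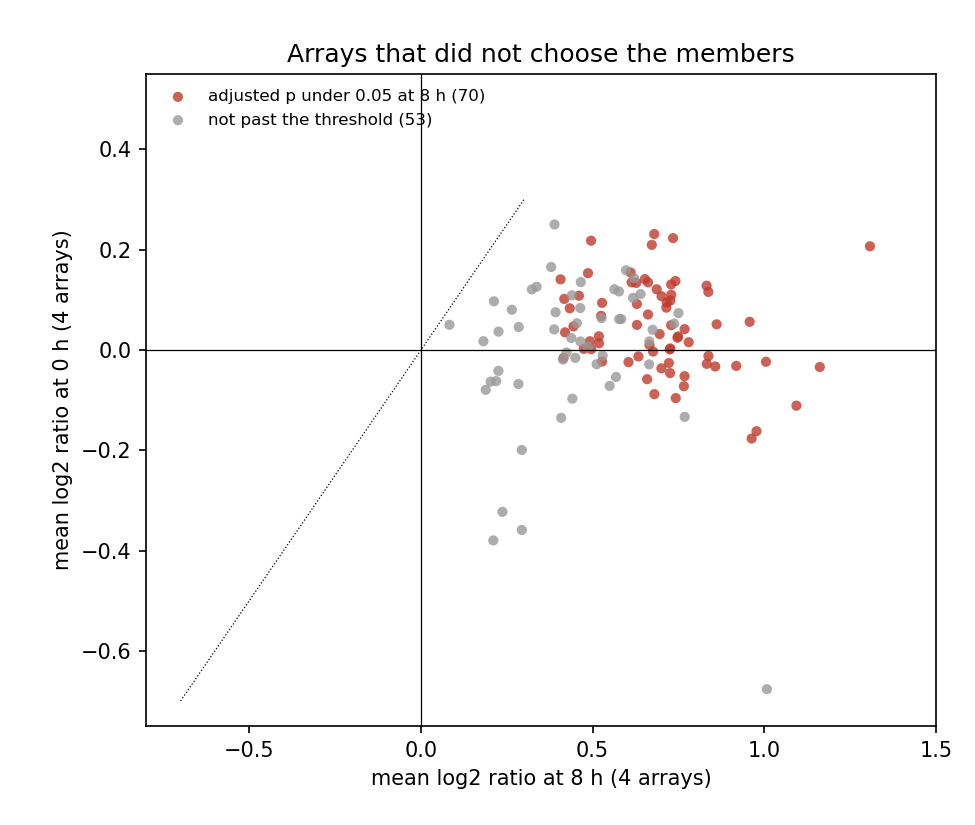
Mean log2 ratio at 8 h (horizontal) and at 0 h (vertical) of each of the 123 features, over 4 arrays each; red points passed the 8 h test and the dotted line marks equal values. All points lie to the right of that line, with 8 h means from 0.08 to 1.31 and 0 h means from -0.68 to 0.25.

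The features differed in when they first reached a mean of 0.5. The 2 h arrays were the first for 3 features, those at 4 h for 7, and those at 6 h for 52. Another 21 features got there by 8 h, 35 only by 10 h and 5 only by 12 h. The 8 h mean exceeded the 6 h mean in 97 of the 123, with a median step of 0.12, and the 10 h mean exceeded the 8 h mean in 85, with a median step of 0.14. At 8 h, 118 stood above their early mean and 92 below their mean of 10 and 12 h. The rule limited the means on both sides of 8 h, and such a choice favours this order. These counts were not set beside all features, so they describe the set and test nothing. Each single step was small beside the spread of a feature between arrays, whose median SD was 0.36 at 8 h, and in 23 of the 123 the mean was higher at every step from 2 to 12 h.

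Most of the set went further by 22 h. The 22 h mean was the highest of all time points in 98 features, the 10 h mean in 11, the 12 h mean in 11 and the 8 h mean in 3. The 22 h mean exceeded that of 10 and 12 h in 104 features and was below it in 19, with a median difference of 0.36 and a range from -0.36 to 1.30. It exceeded it by at least 1, a doubling of the ratio, in 13 features. Means of at least 1 were found in 1 feature after 6 h, in 5 after 8 h, in 19 and 23 of them after 10 and 12 h, and in 55 by 22 h. Since the choice used the arrays at 10, 12 and 22 h, these values describe the set.

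The size of the late ratio spread widely. The mean of 10 and 12 h ran from 0.51 to 2.25 with a median of 0.66, and the early mean from -0.15 to 0.496 with a median of 0.28. In 18 features the mean of 10 and 12 h was at least 1. These 18 had a median of 0.70 after 6 h, then 0.86 after 8 h, 1.27 and 1.403 after 10 and 12 h, and 2.48 by 22 h. The other 105 had 0.46, 0.56, 0.64, 0.63 and 0.93 at the same times. At 4 h both groups were alike in level, with medians of 0.28 and 0.25.

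**Figure D3:**
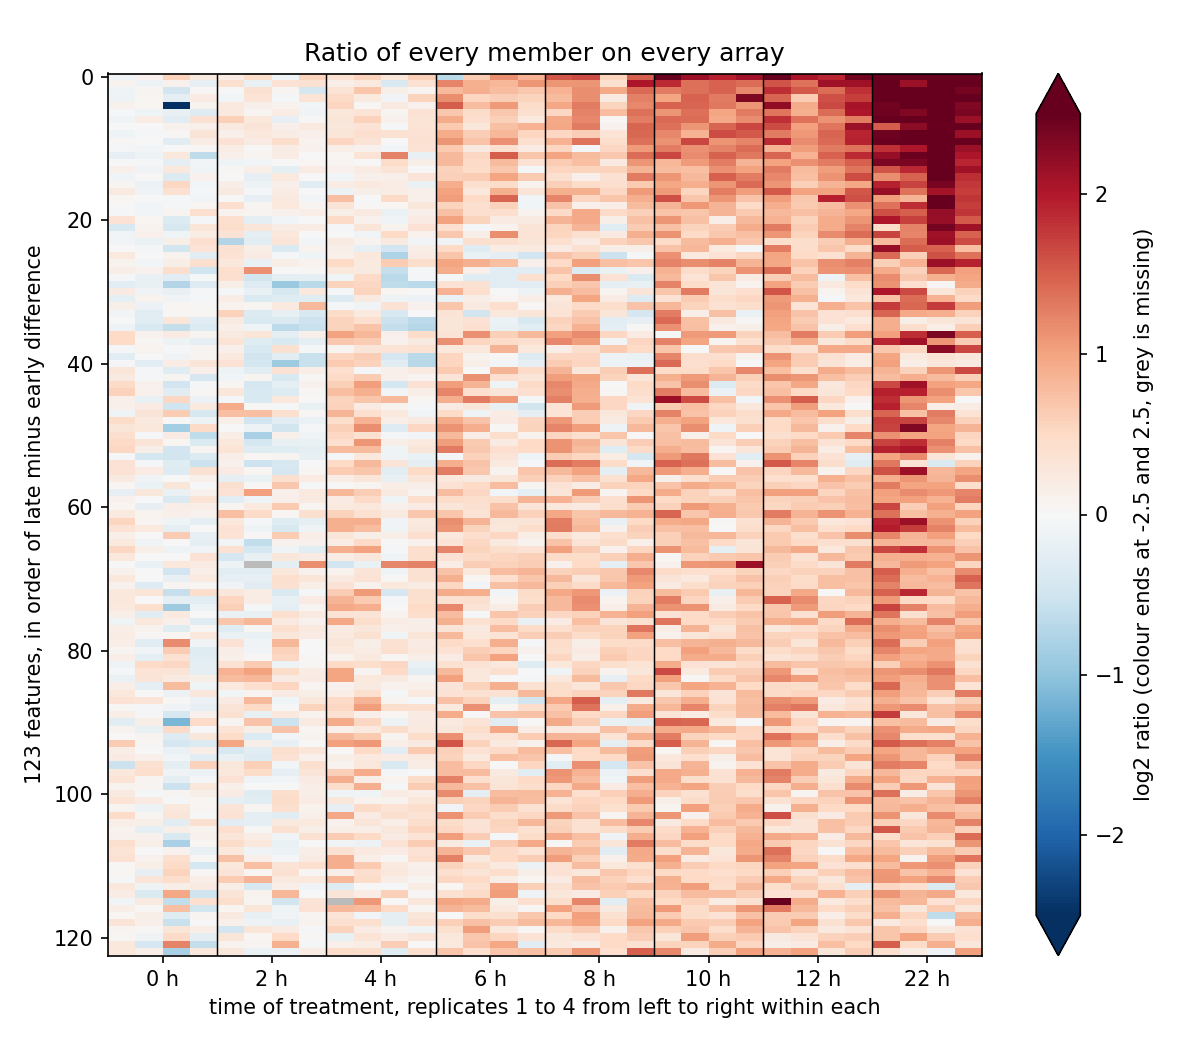
Log2 ratio of each of the 123 features (down the page, ordered by late minus early difference) on each of the 32 arrays (across, by time point). Columns at 0 and 2 h are pale, the red deepens from 6 h on, and the 22 h columns are deepest in the upper rows, where single ratios reach beyond 2.5.

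Calls by the same limma model at the time points used in the choice are given for scale only. The members passing on the positive side numbered 0 after 2 h (background 0.151%; 18 at an unadjusted p under 0.05), then 3 after 4 h (background 0.965%) and 47 after 6 h (background 2.15%). They numbered 85 by 10 h (background 2.32%), then 89 by 12 h (background 2.47%) and 107 by 22 h (background 4.32%). Of the 47 features at 6 h, 45 were also among the 70 at 8 h; the time points share no arrays, but they share each feature's dye term and variance. Over the 7 time points from 2 to 22 h, 66 members passed at 4 or more and 9 at none. All of these time points but 8 h were used in the choice. Neither these counts nor the overlap of the 6 and 8 h calls was made over all features, so they describe the set only.

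The feature with both the largest late minus early difference (2.21) and the largest mean of 10 and 12 h (2.25) was GP001G3. On replicates 1 to 4 it had -0.07, 0.11, 0.57 and 0.22 at 0 h, 0.18, 0.44, -0.11 and 0.55 at 2 h, and 0.38, 0.57, 0.28 and 0.59 at 4 h. At 6 h it had -0.68, 0.63, 1.16 and 0.87. The early values thus ran from -0.68 to 1.16, and some passed 0.5 at each of 2, 4 and 6 h. They were widest at 6 h, where replicate 1 was below 0 and the other 3 were at 0.63 or more. The 6 h mean of 0.498, and with it the early mean, was lowered by that 1 array. At 8 h GP001G3 had 1.56, 1.63, 0.56 and 1.49, with replicate 3 far below the other 3. It had 2.58, 2.13, 1.94 and 2.103 at 10 h, 2.92, 2.05, 1.905 and 2.41 at 12 h, and 3.51, 3.57, 2.55 and 3.75 at 22 h. No value from 10 h on overlapped any value at 8 h or before. Its 8 h ratio was 1.31 (SE 0.21, adjusted p = 0.000264 by limma). Its 8 h minus 0 h difference of 1.101 (SE 0.30) did not pass (adjusted p = 0.0936), although 3 of the 4 values at 8 h lay above all 4 at 0 h. Without replicate 3 it was 1.47 and passed (adjusted p = 0.0152), while under the other alternatives with a test the adjusted p was 0.0703 to 0.598.

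Feature GP064G2 was next in both measures, with a late minus early difference of 1.64 and a mean of 1.66 at 10 and 12 h. On replicates 1 to 4 it had 0.08, -0.12, 0.11 and -0.20 at 0 h, 0.41, -0.19, 0.35 and 0.38 at 2 h, and 0.17, 0.24, -0.38 and 0.39 at 4 h. At 6 h it had 1.23, 0.89, 0.83 and 1.11, all above every earlier value, so that its step came between 4 and 6 h. It had 1.11, 1.11, 0.41 and 2.02 at 8 h, the widest spread of any of its time points. At 10 h it had 1.86, 1.37, 1.47 and 1.39, at 12 h 1.57, 1.35, 2.12 and 2.12, and at 22 h 3.12, 2.15, 3.63 and 2.93. Its 8 h values overlapped those at 10 and 12 h, and all 4 values at 22 h lay above them. The 8 h ratio was 1.16 (SE 0.19, adjusted p = 0.000365 by limma), and its difference from 0 h was 1.20 (SE 0.27, adjusted p = 0.0301). That difference did not pass without replicate 1, 2 or 4 (adjusted p = 0.171, 0.124 and 0.318 by limma), nor with the arrays averaged in pairs (adjusted p = 0.0868), with each time point fitted alone (adjusted p = 0.245) or without the 10 arrays with many limit values (adjusted p = 0.119).

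**Figure D4:**
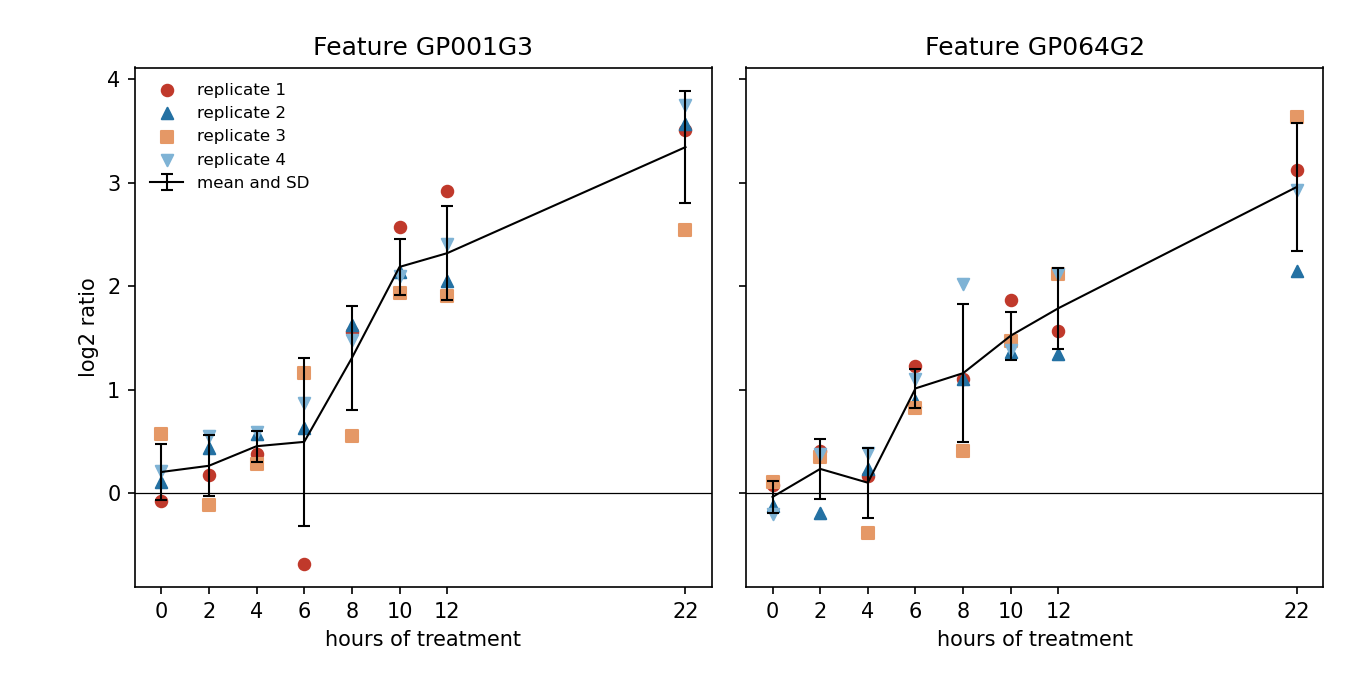
Log2 ratio of features GP001G3 and GP064G2 on each array (points by replicate) with the mean and SD of the 4 arrays (black line and bars) against hours of treatment. GP001G3 stays below 0.5 on average to 6 h and reaches 1.31 at 8 h and 3.34 at 22 h, while GP064G2 reaches 1.01 at 6 h and 2.96 at 22 h.

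The same rule was applied to 3 of the 4 replicates, with at least 8 of 9 values and 8 of 9 positive values, and the features so chosen were read on the replicate left out. Without replicates 1, 2, 3 and 4 it chose 106, 120, 130 and 132 features, of which 88, 97, 101 and 92 were among the 123. On the replicate left out their median was 0.01 ± 0.09 at 0 h (SD over the 4 replicates left out), then 0.09 ± 0.11 after 2 h, and 0.23 ± 0.12 after 4 h. It was 0.48 ± 0.18 after 6 h, then 0.53 ± 0.14 after 8 h, 0.62 ± 0.15 after both 10 and 12 h, and 0.95 ± 0.21 by 22 h. At 10 h the medians were 0.83, 0.64, 0.49 and 0.53 on replicates 1, 2, 3 and 4. On each replicate left out the median was thus higher at 10 and 22 h than at 0 h. It fell from 6 to 8 h on replicate 1 (0.75 to 0.63) and on replicate 3 (0.43 to 0.33). At 10 h it was lower on replicates 3 and 4 than on replicates 1 and 2.

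Because replicates 1 and 2, and 3 and 4, could be dye swaps of the same RNA, the rule was also applied to 1 such pair and read on the other. Chosen on replicates 3 and 4, 117 features (72 of them among the 123) had medians on replicates 1 and 2 of 0.04 at 0 h, then 0.57 after 8 h, 0.70 after 10 h and 0.99 by 22 h. Chosen on replicates 1 and 2, 152 features had lower medians on replicates 3 and 4, of -0.06 at 0 h, then 0.25 after 8 h, 0.26 after 10 h and 0.54 by 22 h. Of these 152, 58 (38.2%) were among the 123, which is 47.2% of the 123. The level read on replicates 3 and 4 was thus under the 0.5 of the rule at 10 h, although 126 of the 152 features were above 0 there.

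**Figure D5:**
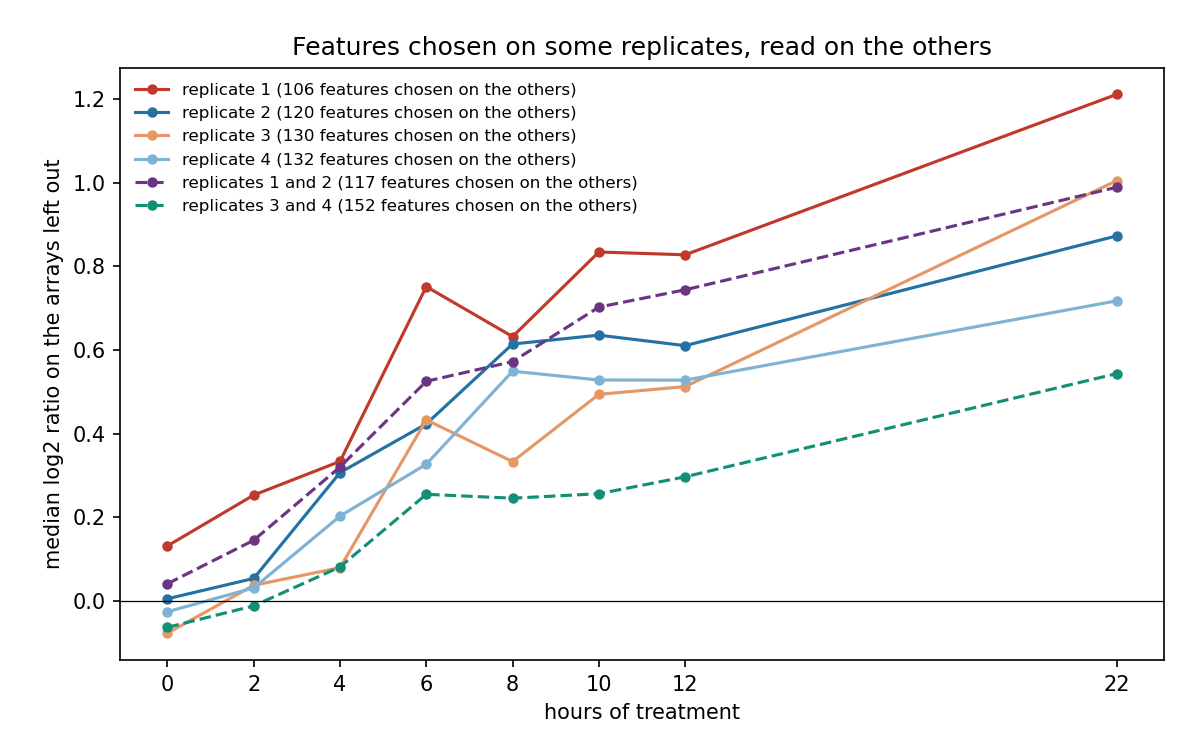
Median log2 ratio, on the arrays left out, of features chosen by the rule on the remaining arrays, against hours of treatment; solid lines leave out 1 replicate and dashed lines a pair. All lines climb from near 0 at 0 h, and the lowest, read on replicates 3 and 4, ends at 0.54 at 22 h against 0.99 for the reverse choice.

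Replicates contributed unequally. Among the 4 arrays of a time point, the median of the 123 features was highest on replicate 1 at 7 of the 8 time points, and lowest on replicate 3 at 5 of the 8. With the arrays scaled to 1 spread, replicate 1 was highest at all 8 and replicate 3 lowest at 3. At 0 h, replicate 1 also stood highest (0.12, against 0.01, -0.03 and 0.03 on the others). The part of this difference in the results above was not tested beyond the counts without each replicate. The dye term is the gap between arrays of opposite orientation. Each time point holds equally many arrays of either orientation, so the gap cancels in a mean over all 4 with no value missing. The dye term ran from -0.44 to 0.46 over the 123 features (median 0.04, quartiles -0.11 and 0.16). Over all features it ran from -1.96 to 1.23 (median 0.04, quartiles -0.13 and 0.20). It passed the limma test in 14.6% of the members, against 30.1% of all features tested.

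Members were set beside 2 sets with neighbouring time courses, chosen on the same arrays and described with no test. The 99 features raised early and kept (early mean and mean of 10 and 12 h both at least 0.5) had a median of 0.52 at 2 h and 0.82 at 4 h, where the climbing set had 0.11 and 0.25. The early set went on rising as well, with 0.89 at 6 h, 1.19 at 10 h and 1.36 at 22 h. Its late minus early difference had a median of 0.52, against 0.49 in the climbing set. A later rise was thus not particular to the climbing set, and the early level, which the rule fixed, set them apart. At 8 h, which chose neither set, the array medians of the climbing features were 0.38 to 0.69 and those of the early set 0.60 to 1.28. The 131 features raised at 22 h only had 8 h array medians of 0.06 to 0.28, below all 4 of the climbing set. At 8 h, 70 of 123 climbing features passed on the positive side, against 79 of 99 in the early set and 18 of 131 in the 22 h set.

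The threshold cuts through a continuous range. The 5 members closest to it had means of 0.507 to 0.513 at 10 and 12 h, and the 5 closest features that failed on that condition alone had 0.497 to 0.499. Their 8 h means also overlapped, at 0.41 to 0.72 inside and 0.23 to 0.83 outside. In all, 92 features failed on the 10 and 12 h mean alone, 58 on the early mean alone, 40 on the late minus early difference alone and 6 on the number of positive values alone. On the early mean, the 5 members nearest to 0.5 had 0.474 to 0.496 and the 5 nearest outside 0.512 to 0.525.

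Several members resembled each other beyond the shared time course. After removal of each feature's time-point means and dye term, deviations over the 32 arrays were compared between members. The correlation had a median of 0.09 over 7503 pairs (quartiles -0.14 and 0.35), and 51 pairs reached 0.9. That is 0.680% of member pairs, against 0.00618% of all pairs among the 9791 features with 32 values. All features share the arrays, so the value describes resemblance only. Features linked at 0.9 or more formed a group of 13, a group of 5 and 2 pairs.

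The group of 13 came from 12 plates, and its course differed from that of the other members. Its medians were -0.11 after 2 h, then 0.45 after 4 h, 0.62 after 6 h and 0.65 after 8 h. They were 0.59 and 0.55 after 10 and 12 h, and 1.43 by 22 h. The 13 features lay within 1.22 to 1.46 at 22 h, and all 13 were highest there. The course was thus flat from 6 to 12 h with a second step by 22 h, where the other 110 members had medians of 0.47 after 6 h, then 0.69 after 10 h and 0.94 by 22 h. At 8 h, 3 of the 13 passed the limma test. Another 11 features outside the set reached a correlation of 0.9 with at least 1 of the 13, and 6 of these 11 had a mean under 0.5 at 10 and 12 h and 3 an early mean of 0.5 or more. The 11 had a like course, with medians of 0.51 after 4 h, 0.53 and 0.49 after 10 and 12 h, and 1.20 by 22 h. Of the 11, 6 were in the set raised at 22 h only. Features that resembled the group thus lay on both sides of the thresholds.

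Members were spread over 66 of the 114 plates, with 12 on plate 3 and at most 4 on any other plate. On plate 3 they made up 12.5% of 96 features, against 1.14% of the 10816 features, and the other 84 features of that plate had a median of -0.11 at 8 h and 0.03 at 22 h. All 12 lay in the outer rows, 5 in rows A and B and 7 in rows G and H, and none in rows C to F. Their medians were 0.39 after 8 h, then 0.70 and 0.57 after 10 and 12 h, and 0.87 by 22 h, where the other 111 members had 0.63, 0.67, 0.69 and 0.99. At 8 h, 5 of the 12 passed. Their deviations fell into a pair of sets that each moved together. The linked group of 5 was all on this plate, with correlations of 0.876 to 0.951 over its 10 pairs. Its medians were -0.30 after 2 h, then 0.21 after 8 h, 0.53 and 0.56 after 10 and 12 h, and 0.47 by 22 h. No feature of this group passed at 8 h (adjusted p = 0.605 to 0.757 by limma), so the 5 that passed all lay outside it. Among the other 7 the 21 pairs had correlations of 0.577 to 0.886 with a median of 0.73. Between the 5 and the 7 the median was -0.21 over 35 pairs. Whether a plate position or its printing has a part in these 12 was not tested.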

How the data were processed

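RNA from dexamethasone- and mock-treated callus was hybridized to 32 two-colour cDNA arrays. The deposited values are log10 ratios, 1 per feature and array, which the authors analysed with Rosetta Resolver, per the labels. Base 10 was inferred from the limits of exactly -2 and 2 and array medians of 0.00092 to 0.0152. The sources used here give neither background correction nor normalization nor dyes. Values were converted to log2, those of replicates 2 and 4 were turned, and limit values were set missing. Turning follows the channel that the labels give for the treated RNA. Correlations across features were set beside it. At 2 to 22 h arrays of opposite orientation averaged -0.0187 to -0.294 and those of the same orientation 0.120 to 0.335. Single pairs of opposite orientation reached 0.0848 at 2 h and 0.0455 at 8 h. At 0 h arrays of opposite and of the same orientation averaged 0.169 and 0.177, so the values at 0 h do not show the orientation. No other sample columns were present.

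limma 3.58.1 in R 4.3.3 (lmFit, eBayes) was fitted to all arrays with 1 coefficient per time point and a dye term, for the 10567 features with at least 1 value per orientation at every time point, including all 123 members. P-values are two-sided, adjusted by Benjamini-Hochberg over all features tested. The script was tested on simulated data. The number of arrays limits the precision, and signal intensities were not used here. The members and feature sets were chosen with earlier results of these data known. Without gene names, 2 features were to be named, those with the largest late minus early difference and the largest mean of 10 and 12 h (the next one, where both fell on the same feature), with at least 30 values. Alternatives covered limit values, dye term, replicate block, centring, scaling, averaged pairs, single time points, left-out replicates, complete features, variance and sign.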

Additional observations from a re-analysis of the deposited data

Results flagged for a closer look

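In 24 groups of 4 arrays, 2 held a single array whose gap to the rest exceeded the 95% limit of Dixon's test, and chance gives about 1 in 20, or 1.2. Feature GP064G2 at 2 h had -0.19 on replicate 2, below its other 3 arrays. Feature GP001G3 at 8 h had 0.56 on replicate 3, below its other 3 arrays. For 13 of the 123 members the 8 h ratio differed from the 0 h ratio by limma's test of the difference itself, and GP064G2, with 1.20, was among them.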

How the results depend on the processing

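The 0 h and 8 h tests rest on 4 arrays each, a spread shared over all time points and an unstated direction. No source gives signal over background. For the members passing at 8 h (70), the features passing at 8 h (339), the members passing for 8 h minus 0 h (13) and the features passing for it (85), counts were 37, 164, 3 and 21 with replicates 1 and 2, and 3 and 4, averaged, 0, 8, 1 and 29 with the arrays of a time point fitted alone (limma, 101, 1002, 74 and 724 at an unadjusted p under 0.05) and 41, 196, 2 and 30 without the 10 arrays with over 100 upper-limit values, an alternative chosen after seeing the data, like the choice on 1 pair of replicates. With the replicate block they were 92, 590, 36 and 159. Deviations of same-numbered arrays at 0 and 8 h correlated between -0.0895 and 0.0755, and 2 of these 8 arrays correlated best with their own number, so the numbers were not taken as pairs. Over all time points the correlation ran from -0.224 to 0.426, with 47 of 112 over 0.1, and all 4 replicates exceeded 0.1 in 4 of the 28 pairs of time points. With no dye term, 53 features passed for 8 h minus 0 h. With arrays scaled, 8 members passed for it and 2 features passed at 0 h. Leaving out 1 replicate gave 37 to 71, 216 to 347, 1 to 17 and 11 to 65, and at 0 h 0 to 1 features and 0 members (limma; 1 to 5 members unadjusted). The members' median at 8 h was then 0.54 to 0.71, at 0 h -0.01 to 0.07 and for 8 h minus 0 h 0.49 to 0.60. Arrays with treated RNA in channel 2 alone gave an 8 h median of 0.49, and those with it in channel 1 gave 0.71. Turning the sign gave medians of -0.61, -0.037 and -0.54, and 8 h ratios of -1.31 for GP001G3 and -1.16 for GP064G2, by construction. Both named features lost their 8 h call only with the 8 h arrays fitted alone (adjusted p = 0.116 and 0.171 by limma). A threshold of 0.6 on the mean of 10 and 12 h left 74 members, and 0.4 gave 161. Leaving out 1 replicate gave 106 to 132 members. The other alternatives (limit values kept, centring, robust variance, complete features) moved no count by over 1.5 times. The cause of these changes was not tested.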
